A study of Mus musculus with 29 samples.

Results

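Genes that make prostanoids and sense them are described here in cultured stromal vascular fraction (SVF) of mouse white adipose tissue. The 10 genes were chosen by symbol from 56953 features of the count table, and the choice was made with earlier results of these same libraries known. They comprise the cyclooxygenases Ptgs1 (ENSMUSG00000047250.14) and Ptgs2 (ENSMUSG00000032487.9), and the synthases Ptges (ENSMUSG00000050737.14), Ptges3 (ENSMUSG00000071072.13) and Ptgis (ENSMUSG00000017969.14). Ptgr1 (ENSMUSG00000028378.7) encodes a reductase that inactivates prostaglandins and leukotrienes. The receptors are Ptgir (ENSMUSG00000043017.10), Ptger2 (ENSMUSG00000037759.7), Ptger4 (ENSMUSG00000039942.16) and Ptgfr (ENSMUSG00000028036.7). Of the 10 genes, 7 had enough counts for the test and the receptors Ptger2, Ptger4 and Ptgfr did not.

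SVF is the mix of non-adipocyte cells released when adipose tissue is digested, here unsorted cells of adult C57BL6/J mice from the inguinal depot (iWAT, subcutaneous) or the perigonadal depot (pgWAT, visceral). All cultures were grown for 4 days in PM1 medium with 1 nM basic fibroblast growth factor, so none is free of that factor, and their RNA was made into Smart-seq3 libraries. By their labels, iWAT gave 10 male and 9 female libraries, and pgWAT gave 4 male and 6 female libraries. The study describes the libraries as technical wells of few independent experiments, and the labels do not say which well belongs to which experiment, so p-values here measure how wells vary, which says little of how animals vary.

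Total counts per library ranged from 315316 to 1102234. In the 19 iWAT libraries, Xist and the Y-linked genes matched the labelled sex. In pgWAT, 4 libraries went against their label (male replicates 2 and 4, female replicates 2 and 3) and female replicate 1 held counts of both kinds. Those 5 libraries were kept under their labels, and the members' results that change without them are also given without them. Fibroblast markers were high in all libraries, with a summed level of 6387 to 12199 CPM (counts relative to the total of their library) in iWAT and 11686 to 22688 CPM in pgWAT. Macrophage markers summed to 1476 to 2474 CPM in males and 636 to 1136 CPM in females of iWAT, and to 1102 to 8021 CPM in males and 741 to 3364 CPM in females of pgWAT. Smooth muscle and pericyte markers summed to 605 to 849 CPM in iWAT male, 831 to 3578 CPM in iWAT female and 1187 to 3034 CPM in pgWAT. Mesothelial markers, of cells that line visceral fat, summed to 1.96 to 343 CPM in iWAT (median 31.9 CPM) and 62.5 to 213 CPM in pgWAT (median 144 CPM). Of the 5 tested, 4 were higher in pgWAT and Krt19 was lower (log2 fold change -1.43). Among the 4, Krt7 was at 3.96 in labelled males and at -0.73 in labelled females. Proliferation genes summed to 858 to 1333 CPM in iWAT and 465 to 1008 CPM in pgWAT. In bulk cultures, fewer cells of a type and less RNA per cell cannot be told apart, and the part of these markers in the results was not tested.

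Prostanoids are short-lived lipid signals made from arachidonic acid, which phospholipases release from membranes. Cyclooxygenases turn it into prostaglandin H2, and terminal synthases turn this into prostaglandin E2, prostacyclin, thromboxane and other products, each of which acts on its own G-protein-coupled receptors. In adipose tissue, prostaglandins are known as regulators of adipocyte precursor differentiation, lipolysis and inflammation.

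Ptgis, prostacyclin synthase, differed between the sexes in iWAT. Its level ran from 138 to 252 CPM in iWAT male libraries (median 200 CPM, n = 10) and from 374 to 451 CPM in iWAT female libraries (median 392 CPM, n = 9). In pgWAT it was at 207, 294, 233 and 305 CPM in male replicates 1 to 4 and at 237 to 373 CPM in female libraries (median 304 CPM, n = 6). The iWAT male and female libraries did not overlap, which held for 0.52% of all genes tested. All 10 pgWAT libraries lay below every iWAT female library, a comparison for which the share of all genes was not computed. Within pgWAT, Ptgis was at 207 and 233 CPM in the male libraries that met their label and at 294 and 305 CPM in those with Xist counts. In the female libraries it was at 347, 373 and 286 CPM in those that met their label, at 237 and 297 CPM in those with Y-linked counts and at 310 CPM in the one with both.

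The iWAT male minus female log2 fold change of Ptgis was -1.04 (SE 0.109, FDR 1.31e-07, edgeR quasi-likelihood test over 8853 genes, two-sided). FDR here is the Benjamini-Hochberg adjusted p, and a gene was called at an FDR below 0.05. Ptgis was the 1 member of 7 called in this contrast, against 3.22% of all genes. Between the pgWAT sexes as labelled, Ptgis was at -0.25 (SE 0.153, FDR 0.701), and at -0.65 (SE 0.209, FDR 0.065) in the 2 male and 3 female libraries that met their label, so neither was called. The end of each library's title was read as row and column of the library plate. The labels do not say whether it also marks experiment or animal. Within well column 7, which held libraries of both sexes, the iWAT sex difference of Ptgis was -1.03 (SE 0.146, FDR 0.000259). Smooth muscle and pericyte markers moved with Ptgis between the iWAT sexes (all 3 tested of the 8 were lower in males), as did 2 of 6 fibroblast markers (Col1a1 at -1.23, FDR 0.00114, and Lum at -1.38, FDR 0.00196), and macrophage markers moved against it (2 of 6 tested were higher in males). Epithelial markers summed to 0 to 8.31 CPM in iWAT male and 31.7 to 1409 CPM in iWAT female. Their part in the difference was not tested.

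The other 6 tested members were not called between the iWAT sexes. Ptgs1 was 0.34 higher in males on the log2 scale (SE 0.125, FDR 0.135) and Ptges 0.31 higher (SE 0.15, FDR 0.305), and only these and Ptgis had an unadjusted p below 0.05. The 95% intervals were -0.81 to 0.58 for Ptgs2, -0.44 to 0.27 for Ptges3, -0.42 to 0.10 for Ptgr1 and -0.09 to 0.65 for Ptgir. For Ptgs2 the interval therefore leaves room for a sizeable difference in either direction.

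The depot difference of Ptgis pointed in opposite directions in the labelled sexes. It was 0.42 (SE 0.138, FDR 0.029) for pgWAT minus iWAT in males and -0.37 (SE 0.125, FDR 0.0254) in females. Both were called, and neither was called without the count filter (FDR 0.13 and 0.069). With well column as a factor, the male call held (0.42, FDR 0.0465) and the female call was lost (-0.32, FDR 0.137). Averaged over both sexes the depot difference was 0.02 (SE 0.0934). The difference between the depot effects was 0.79 (SE 0.186, FDR 0.0628), short of the threshold, and 0.181% of all genes were called in that test. Without the 5 pgWAT libraries whose sex-linked genes did not meet the label, it was 0.40 (SE 0.23, FDR 0.537). The depot differences without them were 0.15 in males (FDR 0.684) and -0.25 in females (FDR 0.264), neither called. No member was called for this difference by edgeR or limma-voom, 2 had an unadjusted p below 0.05 (Ptgis and Ptges), and DESeq2 called Ptgis alone (FDR 0.0114).

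**Figure D1:**
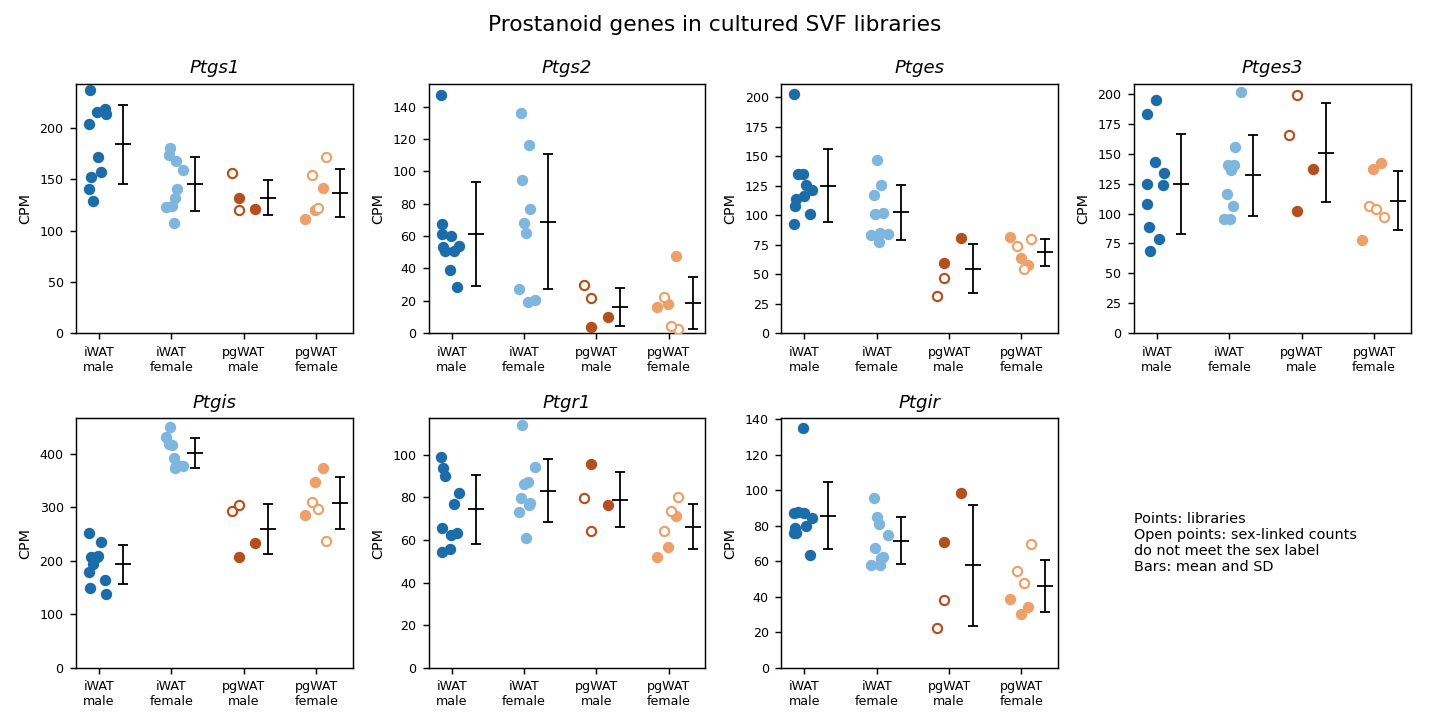
CPM of the 7 tested members in each library (points), by depot and labelled sex, with the mean and SD as bars, and open points for the 5 pgWAT libraries whose sex-linked counts do not meet the label. Ptgis separates the iWAT sexes (138 to 252 CPM against 374 to 451 CPM), while Ptgs2, Ptges and Ptgir lie lower in most pgWAT libraries.

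Between the depots, 4 of the 7 tested members were called, all lower in pgWAT: Ptgs1, Ptgs2, Ptges and Ptgir. Among all genes 38.1% were called and 17.9% were called lower in pgWAT. The members were chosen with this contrast in view, so nothing is read from their count and their differences are given as a description. The median log2 fold change of the 7 was -0.28, against 0.01 over all genes tested. In labelled males 4 members were called (Ptgis higher, and Ptgs1, Ptgs2 and Ptges lower) against 20.3% of all genes. In labelled females 4 were called (Ptgis, Ptgs2, Ptges and Ptgir, all lower) against 26.8%. Without the 5 libraries that did not meet their sex label, 2 members were called in males (Ptgs2 and Ptges) and 1 in females (Ptgir). With well column as a factor, 4 were called in males and 1 in females (Ptgr1, at -0.54, SE 0.169), and without the count filter 2 in males and 3 in females. The share of all genes called within each sex was not computed in these alternative settings, so nothing is read from these counts.

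Ptgs2, the inducible cyclooxygenase, had the largest depot difference of the members. It ran from 28.5 to 147 CPM in iWAT male (median 53.7 CPM), from 19.2 to 136 CPM in iWAT female (median 67.9 CPM) and from 2.5 to 47.4 CPM in pgWAT female libraries (median 17.1 CPM). The 4 pgWAT male libraries, replicates 1 to 4, held 3.47, 29.4, 9.72 and 21.4 CPM. Of these, replicates 1 and 3 carried Y-linked counts and replicates 2 and 4 carried Xist counts. In pgWAT female, replicates 4 to 6, with Xist counts, held 18.0, 47.4 and 16.3 CPM. Replicates 2 and 3 of that group, with Y-linked counts, held 2.5 and 4.34 CPM, and replicate 1, with both, held 22.4 CPM. The ranges overlapped, with 6 of 10 pgWAT libraries below the lowest iWAT library and 14 of 19 iWAT libraries above the highest pgWAT library. The pgWAT minus iWAT log2 fold change was -1.83 (SE 0.359), -1.92 (SE 0.537) in labelled males and -1.74 (SE 0.474) in labelled females. In all, 106 Ptgs2 counts came from the 10 pgWAT libraries and 791 from the 19 iWAT libraries, so single pgWAT values carry a large counting error. Without the 5 libraries that did not meet their sex label, the difference was -3.16 (SE 0.808) in males and -1.20 (SE 0.523) in females, and the call in females was lost.

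In the labelled groups, which in pgWAT mix libraries that did and did not meet their sex label, Ptgs2 also varied strongly between wells. Its biological coefficient of variation, the spread between libraries beyond counting error, was 53.0%, against a median of 19.7% among the 500 genes nearest in level, of which 98.0% had a lower value. In iWAT female, the 3 libraries of well column 8 held 19.2, 20.4 and 27.3 CPM, while the 4 libraries of column 7 held 61.9 to 136 CPM. Among the libraries of column 8 alone, pgWAT female was not below iWAT female, at a log2 fold change of 0.37 (SE 0.371). Among those of column 9 alone, pgWAT male was below iWAT male by a log2 fold change of -1.0 (SE 0.319). The 2 pgWAT male libraries of column 9 are replicates 2 and 4, which both carry Xist counts against their label. In pgWAT female, column 8 holds replicates 4 to 6, which met their label. Column 10 holds replicates 1 to 3 of that group, which did not. Within pgWAT female, column and sex-linked counts can therefore not be told apart, also with column as a factor. With well column as a factor over all 29 libraries, the depot difference was -1.28 (SE 0.368), at -1.72 (SE 0.507) in males and -0.83 (SE 0.509) in females, and the call in females was lost.

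**Figure D2:**
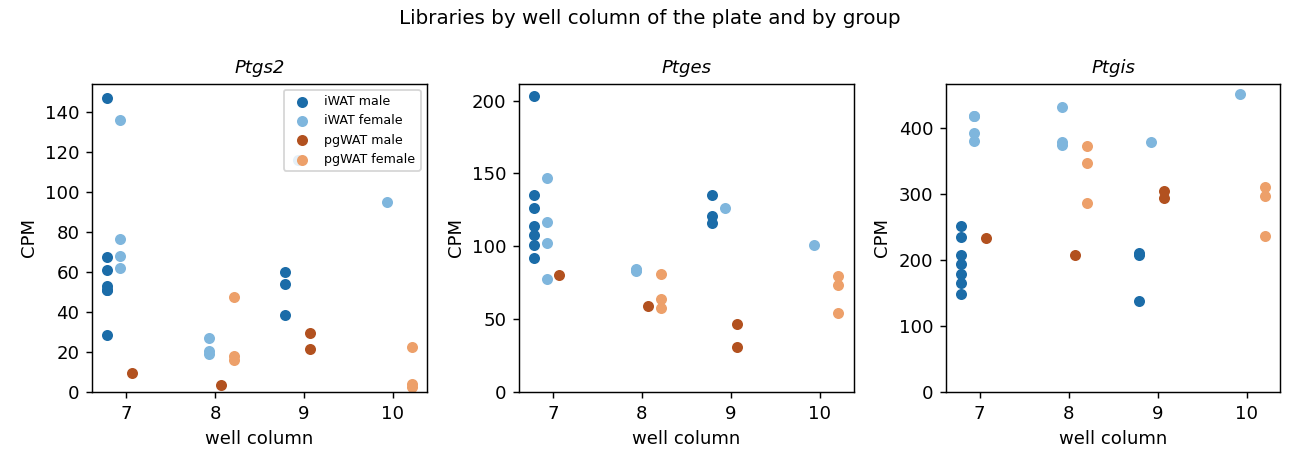
CPM of Ptgs2, Ptges and Ptgis in each library against the well column of the library plate (7 to 10), with points coloured by depot and labelled sex. In column 8 the iWAT female libraries hold 19.2 to 27.3 CPM of Ptgs2, level with the pgWAT female libraries there (16.3 to 47.4 CPM), while Ptgis stays apart between the iWAT sexes in column 7.

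The genes whose level followed Ptgs2 most closely across the 29 libraries, after each group's mean was removed, were Inhba (Pearson r = 0.83), Thbs1 (r = 0.82) and Pls3 (r = 0.79). Inhba encodes a subunit of activins and Thbs1 the matrix protein thrombospondin. Ptgs2 also went with Pla2g4a, the cytosolic phospholipase A2 that releases arachidonic acid (r = 0.63), and hardly with Ptgs1 (r = 0.13) or Ptges (r = 0.15). The points share library preparation and depth, and the values are descriptive. The group means were those of the labelled groups, so differences between pgWAT libraries that did and did not meet their label remain in them.

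Ptgs1, the cyclooxygenase most cells express constitutively, differed little between depots when both sexes were averaged. It ran from 129 to 237 CPM in iWAT male (median 188 CPM), from 107 to 181 CPM in iWAT female (median 141 CPM) and from 111 to 172 CPM in pgWAT female libraries (median 132 CPM), and stood at 132, 156, 121 and 120 CPM in pgWAT male replicates 1 to 4. All groups overlapped, and the pgWAT minus iWAT log2 fold change was -0.28 (SE 0.11), a call that was lost in 19 of 36 alternative settings. The depot difference was -0.48 (SE 0.164, FDR 0.0363) in labelled males and -0.08 (SE 0.148, FDR 0.741) in labelled females. Without the 5 libraries that did not meet their sex label, the male value was -0.56 (SE 0.219, FDR 0.113) and was not called. Of the counts of both cyclooxygenases, Ptgs2 made up a median of 25.2% in iWAT male, 35.2% in iWAT female, 11.3% in pgWAT male and 12.8% in pgWAT female libraries. These shares overlapped between the depots, from 11.4% to 43.9% in iWAT and from 1.43% to 25.0% in pgWAT.

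Ptges, the inducible prostaglandin E synthase that works downstream of the cyclooxygenases, separated the depots more cleanly than Ptgs2. It ran from 92.1 to 203 CPM in iWAT male (median 119 CPM), from 77.4 to 147 CPM in iWAT female (median 101 CPM) and from 54.2 to 81.3 CPM in pgWAT female libraries (median 68.6 CPM). The pgWAT male libraries held 59.0, 31.1, 80.5 and 47.1 CPM. Of the 19 iWAT libraries, 18 lay above the highest pgWAT library, whereas the 2 depots did not overlap at all for 2.13% of genes. The depot log2 fold change was -0.89 (SE 0.14), at -1.20 (SE 0.21) in males and -0.59 (SE 0.187) in females. It was -1.64 (SE 0.252) within column 9 in males, where both pgWAT libraries go against their sex label. Within column 8 it was -0.37 (SE 0.195) in females, where the pgWAT female libraries are those that met their label. Without the 5 libraries that did not meet their label it was -0.87 (SE 0.254) in males and -0.62 (SE 0.224) in females, and with well column as a factor -1.10 (SE 0.214) and -0.46 (SE 0.223). The call in females was lost in all 3 of these settings (column 8 alone, those libraries left out, column as a factor).

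Ptges3, a co-chaperone of Hsp90 with a prostaglandin E synthase activity, showed no such difference. Its level ran from 68.5 to 202 CPM in iWAT and from 78.1 to 199 CPM in pgWAT, at a depot log2 fold change of 0.03 (95% interval -0.27 to 0.34). Of its distinct 31-base words, 20.6% also occur in other genes, mainly in the pseudogene Ptges3-ps, to which 7 counts were assigned in iWAT and 0 in pgWAT. Ptgr1 ran from 54.2 to 114 CPM in iWAT and from 52.1 to 95.5 CPM in pgWAT, at a depot log2 fold change of -0.11 (95% interval -0.35 to 0.12). The groups overlapped throughout for both genes.

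Ptgir, the prostacyclin receptor, was lower in most pgWAT libraries. It ran from 63.4 to 135 CPM in iWAT male, from 57.7 to 95.6 CPM in iWAT female and from 30.4 to 70.0 CPM in pgWAT female libraries. The pgWAT male libraries split widely, with 71.2 and 98.6 CPM in replicates 1 and 3 and 22.5 and 38.5 CPM in replicates 2 and 4. Replicates 1 and 3 carried the Y-linked counts their label calls for, and replicates 2 and 4 carried Xist counts. In pgWAT female, replicates 4 to 6, with Xist counts, held 30.4, 34.1 and 39.0 CPM, and replicates 2 and 3, with Y-linked counts, held 70.0 and 47.7 CPM, and replicate 1, with both, held 54.4 CPM. Ptgis, which makes the ligand of this receptor, was lowest in iWAT male, where Ptgir was not low.

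The pgWAT minus iWAT log2 fold change of Ptgir was -0.63 (SE 0.167). It was -0.59 (SE 0.24, FDR 0.0791, not called) in labelled males and -0.68 (SE 0.231, FDR 0.0279) in labelled females. With well column as a factor, the female value was -0.76 (FDR 0.0533) and was not called. Within column 9 the male difference was -1.73 (SE 0.308), where both pgWAT male libraries carry Xist counts. Within column 8 the female difference was -0.92 (SE 0.242), where the pgWAT female libraries met their label. Between the pgWAT libraries as labelled, no member was called by edgeR, DESeq2 or limma-voom, and none had an unadjusted p below 0.05 in edgeR. The share of all genes called was 0.0113% in these labelled groups, and is not given here for the libraries that met their label. With the 2 male and 3 female pgWAT libraries that met their label, Ptgir was 1.30 higher in males on the log2 scale (SE 0.288, FDR 0.00335), and its depot difference was -0.06 (SE 0.221) in males and -1.08 (SE 0.231) in females. The test of that depot by sex difference gave 1.02 (SE 0.318, FDR 0.0875). Macrophage markers moved the same way, at 7447 and 8021 CPM in those male libraries and 741 to 833 CPM in the female ones, and their part was not tested.

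**Figure D3:**
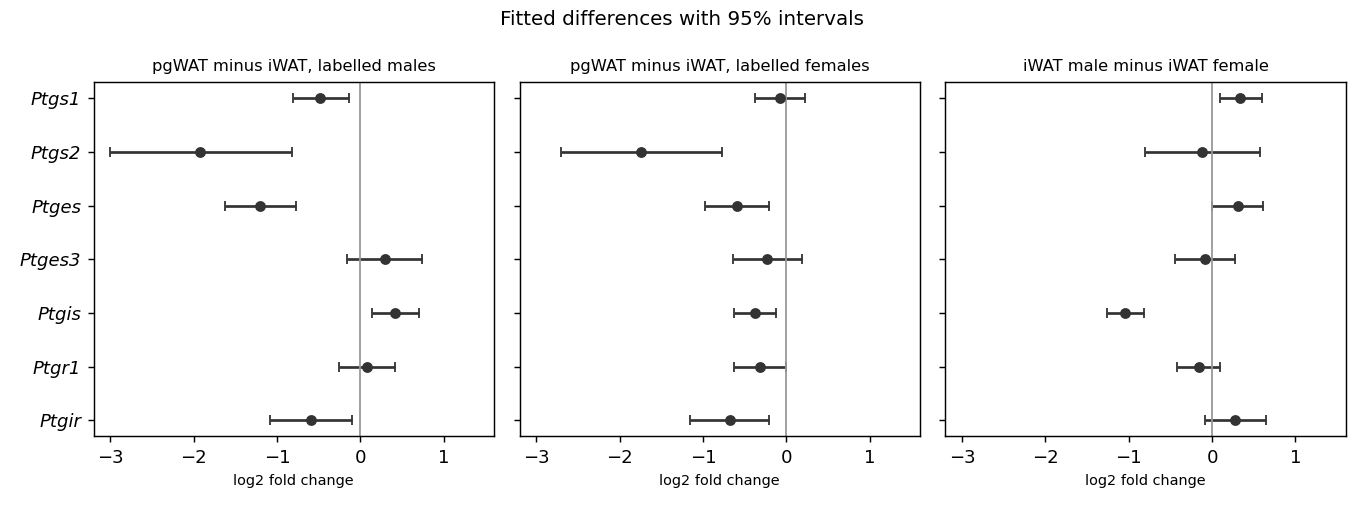
Fitted log2 fold changes (points) of the 7 tested members with 95% intervals (bars) for pgWAT minus iWAT in labelled males and labelled females and for iWAT male minus female. Ptgs2 has the lowest values and widest intervals in both depot panels (-1.92 and -1.74), and Ptgis alone stands clear of 0 on the female side between the iWAT sexes (-1.04).

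The prostaglandin E2 receptors Ptger2 and Ptger4 and the prostaglandin F receptor Ptgfr were near the limit of detection. Summed over all 29 libraries, Ptgfr had 49 counts, Ptger4 had 34 and Ptger2 had 25, and no library exceeded 9.08, 9.03 and 6.74 CPM, respectively. A count of 0 allows up to 3 counts, or 2.72 to 9.51 CPM depending on the library. Ptger2 had no count in any of the 6 pgWAT female libraries. Fitted without the count filter, the depot log2 fold changes were -0.20 (SE 0.647) for Ptgfr, -1.46 (SE 0.726) for Ptger2 and -0.02 (SE 0.826) for Ptger4, with FDRs of 1, 0.207 and 1, so no depot difference was detected in these receptors, and the SEs leave room for sizeable ones.

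Levels were compared between genes as mean CPM per kilobase of the longest coding transcript. Ptgis was the highest member in every group, at 92.0 in iWAT male, 191 in iWAT female, 123 in pgWAT male and 146 in pgWAT female. Ptgs1 stood at 46.1 to 64.2 and Ptges3 at 55.4 to 75.6. Ptgs2 was the lowest of the 7 tested members, at 13.7 and 15.5 in the iWAT groups and 3.59 and 4.15 in the pgWAT groups. Ptgir, at 13.9 to 25.9, was the receptor with the highest level, and the other 3 stayed below 1 in every group. Part of the reads in this protocol come from transcript 5' ends and do not scale with length, so the order is approximate.

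The promoter bases of both cyclooxygenases and of the other 2 members that were lower in pgWAT are shown to let the genes be compared, as RefSeq gives them on GRCm38.p6, 120 bases up to the base before the annotated start. Capitals mark the Sp1 box GGGCGG and the C/EBP core TTGCG on either strand. The windows lie at chr2:36230306-36230425 (plus strand), chr1:150099911-150100030 (plus strand), chr2:30903298-30903417 (minus strand) and chr7:16906370-16906489 (plus strand), each directly upstream of its gene.
Ptgs1: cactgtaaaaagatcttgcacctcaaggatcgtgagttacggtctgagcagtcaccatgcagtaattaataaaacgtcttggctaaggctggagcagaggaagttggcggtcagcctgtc
Ptgs2: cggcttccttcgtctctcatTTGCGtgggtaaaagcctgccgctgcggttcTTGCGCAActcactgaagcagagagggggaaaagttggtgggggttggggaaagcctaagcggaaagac
Ptges: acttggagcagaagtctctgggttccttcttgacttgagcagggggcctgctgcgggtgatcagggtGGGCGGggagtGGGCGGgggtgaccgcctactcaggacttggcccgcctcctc
Ptgir: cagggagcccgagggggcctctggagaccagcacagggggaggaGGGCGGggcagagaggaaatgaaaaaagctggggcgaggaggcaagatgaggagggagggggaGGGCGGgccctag
Ptgs2 holds 3 matches to TTGCG, at -100, -69 and -66 from the start, of which the last pair overlap on opposite strands, and no Sp1 box in this stretch. Ptges holds 2 Sp1 boxes, at -53 and -42, and Ptgir holds 2, at -76 and -13, while Ptgs1 holds neither motif. In the full windows of 300 bases (250 before and 50 after the start), TTGCG occurs in 17.4% and GGGCGG in 35.7% of 32851 promoters, so these matches are common and are given as a description. The E-box CACGTG, found in 7.15% of promoters, occurs in the Ptgs2 window at 17 bases after the start.

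The non-coding gene Ptgs2os starts 157 bases from Ptgs2 on the opposite strand. It had 64 counts in the 19 iWAT libraries (18 with a count) and 6 in the 10 pgWAT libraries (4 with a count), and it did not pass the count filter. Fitted without the filter, its pgWAT minus iWAT log2 fold change was -2.35 (SE 0.639, FDR 0.00417). Ptgs2os2, another non-coding gene named after Ptgs2, had 69 counts in iWAT and 6 in pgWAT, at -2.45 (SE 0.629, FDR 0.00208). Both were lower in pgWAT, as Ptgs2 was.

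The rest of the pathway was read from lists of phospholipases, synthases, inactivating enzymes and transporters, and receptors, 34 genes in all, of which 17 passed the count filter. Between the depots 8 of the 17 were called (47.1%, against 38.1% of all genes), 5 higher and 3 lower in pgWAT. Slco2a1, the transporter that takes prostaglandins into the cell, was at 208 to 382 CPM in iWAT and 60.0 to 142 CPM in pgWAT with no overlap, a log2 fold change of -1.79 (SE 0.113, FDR 1.42e-14). Across libraries, with the means of the labelled groups removed, it went with Ptgir (r = 0.52) more than with Ptges (r = 0.26) or Ptgs2 (r = 0.14).

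Upstream of the cyclooxygenases, Pla2g4a was lower in pgWAT, at 47.5 to 90.4 CPM against 38.4 to 165 CPM in iWAT (log2 fold change -0.63, SE 0.164, FDR 0.0025). With well column as a factor it was -0.34 (FDR 0.157). The lysosomal phospholipase Pla2g15 was higher (0.69, SE 0.16, FDR 0.000776), as were Pla2g7, which hydrolyses platelet-activating factor (1.00, SE 0.357, FDR 0.0256), and Acsl4, which activates arachidonic acid (0.39, SE 0.156, FDR 0.0488, called in 13 of 36 alternative settings). Of the carbonyl reductases, which act on prostaglandins among other substrates, Cbr1 was lower (-0.39, SE 0.134, FDR 0.0209) and Cbr3 was at -0.33 (SE 0.17, FDR 0.124). Ptgfrn, a membrane partner of the prostaglandin F receptor, was higher (0.59, SE 0.159, FDR 0.00343). Pla2g7 was no longer called without pgWAT male replicate 1 (0.91, FDR 0.0576) or replicate 3 (0.74, FDR 0.122), nor was Cbr1 without pgWAT male replicate 4 (-0.34, FDR 0.0589). With well column as a factor, Pla2g7 (0.95, FDR 0.0721), Acsl4 (0.32, FDR 0.182) and Cbr1 (-0.26, FDR 0.213) were not called. Without the 5 libraries that did not meet their sex label, Pla2g7 (1.02, FDR 0.0843), Acsl4 (0.11, FDR 0.731) and Cbr1 (-0.31, FDR 0.205) were not called either.

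Tbxas1, thromboxane synthase, was higher in pgWAT (log2 fold change 1.38, SE 0.405, FDR 0.00715). It was at 34.7, 6.91, 27.8 and 10.7 CPM in pgWAT male replicates 1 to 4. In pgWAT female replicates 1 to 6 it was at 19.2, 22.5, 13, 1.38, 2.96 and 0 CPM. The iWAT libraries held 0 to 12.7 CPM. The pgWAT libraries with mainly Xist counts (male replicates 2 and 4, female replicates 4 to 6) lay within that range, and the other pgWAT libraries lay above it. The 2 highest libraries were the 2 with the most macrophage marker counts, male replicates 1 and 3, and Tbxas1 is known as a gene of macrophages and platelets. Without the 5 libraries that did not meet their label it was 0.56 (FDR 0.545), with well column as a factor 1.01 (FDR 0.0844) and with limma-voom 0.93 (FDR 0.0802), and it was called in the other 31 of 34 settings. Alox5ap, which serves the leukotriene branch and is also a macrophage gene, was at 1.23 (SE 0.31, FDR 0.0019). The part of macrophage content in these values was not tested.

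Of the genes of these lists that the count filter removed, 4 were called higher in pgWAT when it was left out. The share of all genes called in that unfiltered fit is not given here, so nothing is read from this count. Hpgd, the dehydrogenase that starts prostaglandin breakdown, had 80 counts in pgWAT (9 of 10 libraries) and 10 in iWAT (6 of 19 libraries), a log2 fold change of 4.08 (SE 0.502, FDR 1.34e-11). It was at 31.2, 8.64, 13.9 and 5.35 CPM in pgWAT male replicates 1 to 4. In pgWAT female replicates 1 to 6 it was at 9.6, 45, 23.9, 5.53, 8.89 and 0 CPM. The pgWAT libraries with mainly Xist counts (male replicates 2 and 4, female replicates 4 to 6) were the lowest. Their macrophage marker sums were also below those of the other pgWAT libraries, and the part of either was not tested. Tbxa2r, the thromboxane receptor, had 41 counts in pgWAT (10 of 10 libraries) and 9 in iWAT (6 of 19 libraries), at 3.17 (SE 0.565, FDR 2.92e-06). The secreted phospholipase Pla2g2e was at 1.81 (SE 0.37, FDR 5.67e-05) and Hpgds, the prostaglandin D synthase of blood-derived cells, at 1.51 (SE 0.446, FDR 0.0097). Hpgd, Pla2g2e and Hpgds passed the filter in some other settings and were called in all 4 settings in which they were fitted. Passing the filter depended on counts that lie mostly in pgWAT, and the settings share libraries, so these calls are no separate support. These low counts leave the size of the differences uncertain.

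**Figure D4:**
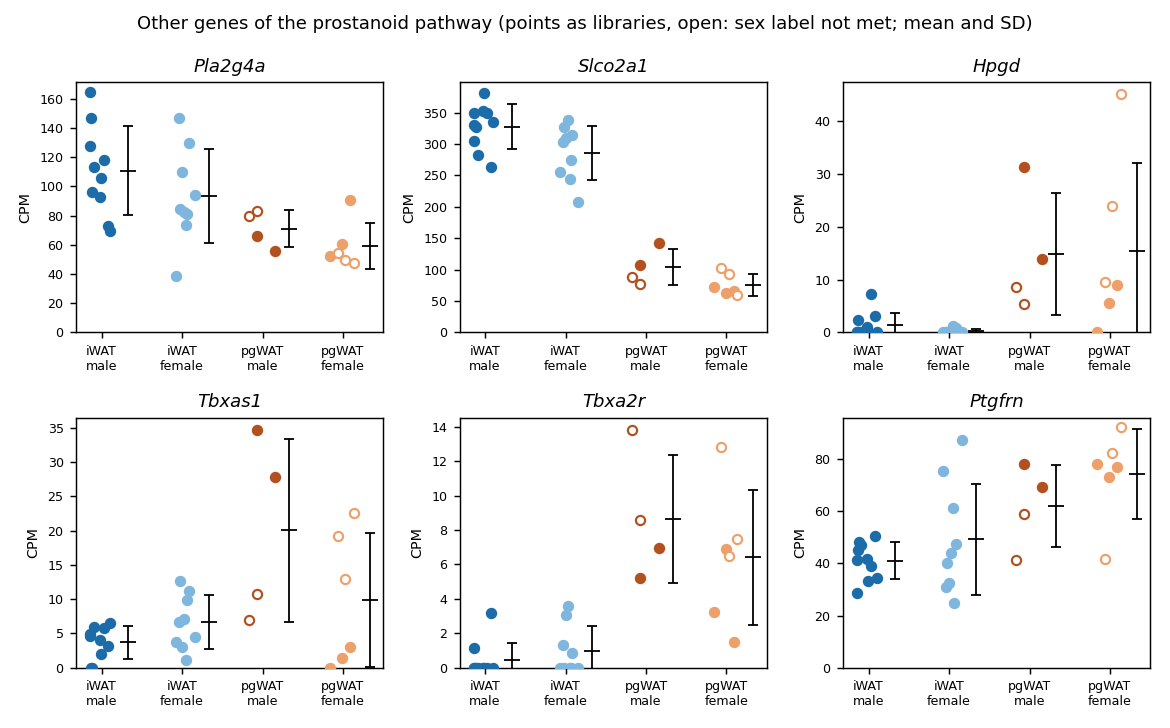
CPM of 6 other genes of the pathway in each library (points, open where the sex label is not met), by depot and labelled sex, with mean and SD as bars. Slco2a1 does not overlap between depots (208 to 382 CPM against 60.0 to 142 CPM), and Hpgd and Tbxa2r are close to 0 in most iWAT libraries.

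Between the iWAT sexes none of the 17 genes was called by edgeR or limma-voom, and Mgll, the monoacylglycerol lipase, was the 1 gene with an unadjusted p below 0.05 and the 1 gene called by DESeq2. Of 11 genes of the interleukin-1 and NF-kB response, 6 were tested. The chemokines Ccl2 (-1.51, SE 0.235, FDR 4.15e-06) and Ccl7 (-0.95, SE 0.174, FDR 4.75e-05) and the receptor Il1r1 (-0.80, SE 0.147, FDR 4.37e-05) were lower in pgWAT on the log2 scale. The cytokine Lif was higher (1.51, SE 0.401, FDR 0.00319), and Nfkbia (0.12, FDR 0.63) and Icam1 (0.54, FDR 0.0832) were not called. Of 9 cAMP-response genes, Pde4b alone had enough counts, at -0.02 (SE 0.298, FDR 0.967).

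The patterns of the members across libraries, with group means removed, were mostly separate. Ptges and Ptgir went together (r = 0.56), as did Ptgs1 and Ptges3 (r = 0.49) and Ptgis and Ptgs2 (r = 0.41), while Ptgis and Ptgs1 went in opposite directions (r = -0.40). The closest other genes were Frzb for Ptgis (r = 0.75), Fgf7 for Ptgs1 (r = 0.76), Psmd13 and Plin2 for Ptges (r = 0.75 and 0.73), Hmgb1 for Ptges3 (r = 0.85), Usp50 for Ptgr1 (r = 0.66) and Cbr3 for Ptgir (r = 0.81). These values are over 29 libraries that share preparation and depth, and are a description. The means removed were those of the labelled groups. Differences between pgWAT libraries that met their sex label and those that did not, also in macrophage markers, therefore remain in the r values.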

How the data were processed

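Per the labels, adult mouse SVF cultures were sequenced as Smart-seq3 libraries. The authors quantified reads with Salmon 1.9.0 (the submitters' notes also list STAR 2.7.10a) on GRCm39 and deposited one table of expected counts per gene, not normalized. Of the nonzero values 85.1% were whole, and all were rounded. Symbols were matched by Ensembl ID for 52029 of 56953 features from a GRCm38 annotation, which also gave transcript lengths and shared 31-base words. Promoters came from RefSeq on GRCm38.p6, where 9 of the 10 genes had an entry (Ptgis had none). Older symbols were used for Prxl2b (Fam213b) and Ptgr3 (Zadh2).

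Counts were fitted in R 4.3.3 with edgeR 4.0.16 (TMM factors 0.949 to 1.06, filterByExpr, quasi-likelihood F test) in a model with 1 term for each of 4 groups over 29 libraries, checked on simulated data. SEs were derived from the F statistic. The filter kept 8853 genes, and calls were made at a Benjamini-Hochberg FDR below 0.05. CPM used totals scaled by TMM factors. Alternatives were RLE factors, total counts, no filter, DESeq2 1.42.0, limma-voom (limma 3.58.1), well column, libraries left out, and single columns. The members, lists and rules were chosen with earlier results of these data known. All 10 members are named, as are genes of the pathway lists that were called between depots or between the iWAT sexes, and for each tested member up to 3 genes of average log2 CPM of at least 5 with the highest r of at least 0.6. A few genes outside this rule (Nfkbia, Icam1, Pde4b, Ptgs2os, Ptgs2os2, Hpgd, Tbxa2r, Hpgds, Pla2g2e, Cbr3) were named after their values were seen. Reads with and without molecular identifiers were counted together, so limits cover counting error only. The group sizes the study's methods state differ from the labels, which were followed.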

Additional observations from a re-analysis of the deposited data

Results flagged for a closer look

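In 28 pairs of a tested member and a group, a library was looked for that stood apart from the others of its group, and 3 were found. In iWAT male, replicate 1 was the highest library for Ptgs2 (147 CPM, against 28.5 to 67.7 CPM in the other 9) and for Ptges (203 CPM, against 92.1 to 135 CPM). Replicate 6 of iWAT male was the highest for Ptgir (135 CPM, against 63.4 to 88.0 CPM). In each case the gap to the nearest library was large against the range of the whole group. Chance flags about 1 in 20 groups, and no cause was tested.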

How the results depend on the processing

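The count of members called was 3 to 4 between the depots and 1 between the iWAT sexes in all 36 alternatives. Ptgs1 was the depot call that was lost (19 of 36 settings), while the calls of Ptgs2, Ptges and Ptgir held in all 36. Between the pgWAT sex labels the count was 0, and 1 (Ptgir) without the libraries against their sex label. The share of all genes called without those libraries is not given here, so nothing is read from that count. For the depot by sex difference it was 0, and 1 (Ptgis) with DESeq2, and 0 to 1 with single libraries left out (1 without pgWAT male replicate 1, FDR 0.0291, or iWAT male replicate 5, FDR 0.0431). Within well column 8, where the pgWAT female libraries are those that met their label, the female depot difference of Ptgs2 reversed from -1.74 to 0.37. Between the iWAT sexes, uncalled differences near 0 changed sign for Ptgs2 (0.12 with limma-voom, -0.37 to 0.09 with single libraries left out), Ptges3 (-0.18 to 0.02 with single libraries left out), Ptgr1 (0.02) and Ptgir (-0.04), the last pair within well column 7. The cause of these changes was not tested. No paired analysis was possible because the labels carry no replicate numbers, and numbers given in order of deposition pair nothing. Low counts widened the errors of Ptgfr, Ptger2 and Ptger4.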
